A study of Rattus norvegicus with 6 samples.

Results

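The matrix metalloproteinases (Mmp genes), the tissue inhibitors of metalloproteinases (Timp genes) and the related Adam and Adamts proteases were compared between cystic and normal rat kidneys. Genes were taken by name. A gene was included when a probe set, the group of short oligonucleotides that reads its transcript, had a single annotated symbol made of Mmp, Timp, Adam or Adamts followed directly by a digit. This gave 74 probe sets for 51 genes, of 14217 genes with a probe set of a single symbol, and they comprised 17 Mmp, 4 Timp, 18 Adam and 12 Adamts genes. Where a gene had several probe sets, the one with the highest mean log2 signal over the 6 arrays represented it. Kidney RNA of male Han:SPRD rats was deposited as 3 Cy/+ and 3 wild-type +/+ samples, with 1 oligonucleotide array per sample. Cy/+ rats carry a missense mutation in 1 copy of Anks6 and develop slowly progressive cystic kidneys, and neither genotype is labeled as treated. The labels give the age as 10 weeks in both genotypes, whereas the methods give a younger age for the array kidneys. No source used here states that the samples numbered 1 to 3 in each genotype came from separate rats, and the p-values therefore reflect only how far these arrays scatter, which may be technical scatter.

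Metalloproteinases use a zinc ion to cut proteins. Mmp enzymes cleave collagens, laminins and other parts of the extracellular matrix, Adam enzymes mainly release membrane-bound ligands and receptors from the cell surface, and Adamts enzymes are secreted and process proteoglycans and procollagens. Timp proteins bind the active site of many of these enzymes and block them. In the kidney, matrix turnover by these enzymes accompanies tubular growth, scarring and cyst expansion. The enzymes are made as inactive precursors, so a transcript level does not give an enzyme activity.

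The deposited values are signal intensities in arbitrary units, from 10.65 to 32240, and the array medians lay between 120.1 and 128.1. Signals of different probe sets cannot be set against each other, and precision is limited by the number of arrays. A probe set was tested with limma when its mean log2 signal reached 6.28, a linear signal of 77.8, which is the 40th percentile of all probe sets. A signal, or a genotype mean of log2 signals, below this threshold is called near background here. A gene rose or fell when its p-value was below 0.05 after Benjamini-Hochberg adjustment across the tested probe sets. By this rule 37.4% of the 10645 tested genes rose and 29.3% fell in Cy/+ kidneys, so most genes on the array changed. The arrays also differed in probe sets that read no kidney transcript. The median fold of Cy/+ over +/+ among their probe sets was 1.83 for the hybridization controls and 3.82 for the poly-A controls. The 3' to 5' signal ratio of beta-actin, which depends on how complete the RNA and its labeling are, was 1.51 ± 0.0057 (SD, n = 3) in +/+ and 3.22 ± 0.26 (SD, n = 3) in Cy/+. The same ratio was 1.18 ± 0.036 (SD, n = 3) in +/+ and 1.85 ± 0.10 (SD, n = 3) in Cy/+ for Gapdh, and 3.83 ± 0.053 (SD, n = 3) and 4.46 ± 0.050 (SD, n = 3) for hexokinase. Each of the 3 ratios was higher on every Cy/+ array (exact two-sided permutation test, p = 0.1, which is the lowest p this design can give). The part of these differences in the results below was not tested. All 13 proximal tubule, 9 thick limb and distal tubule, 10 collecting duct and 5 podocyte markers on the array were bright enough to test. In bulk kidney RNA, fewer cells of a type and less RNA per cell cannot be told apart.

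Of the 51 genes, 31 were bright enough to test. In Cy/+ kidneys 19 of the 31 rose, 6 fell and 6 passed no test, against the 37.4% and 29.3% of all tested genes. The median log2 fold change of the 31 was 0.58, beside 0.090 for all tested genes. The families differed in their counts. Of the 9 tested Adamts genes, 9 rose. Of the 9 tested Mmp genes 6 rose and 1 fell, whereas of the 9 tested Adam genes 2 rose and 3 fell. The 4 Timp genes were divided, with 2 higher and 2 lower. Changes of more than 2-fold were found for 12 of the genes that rose and, among those that fell, for Mmp24 and Adam10. These counts leave out genes near background, and a gene can pass the signal filter through the genotype in which it is bright. Of the genes that rose, 3 (Mmp28, Adamts8 and Adamts15) were near background in +/+, and of those that fell, 3 (Timp4, Adam9 and Adam22) were near background in Cy/+. For such genes the fold is given as a lower bound, in which each signal of the dimmer genotype below 77.8 was set to 77.8. Over all 51 genes and with no filter, 20 rose and 8 fell, against 29.8% and 26.6% of all 14217 genes. All Cy/+ arrays lay above all +/+ arrays for 23 of the 51 genes (34.3% of all genes) and below them for 9 (33.2% of all genes), and the genotypes overlapped for 19.

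**Figure D1:**
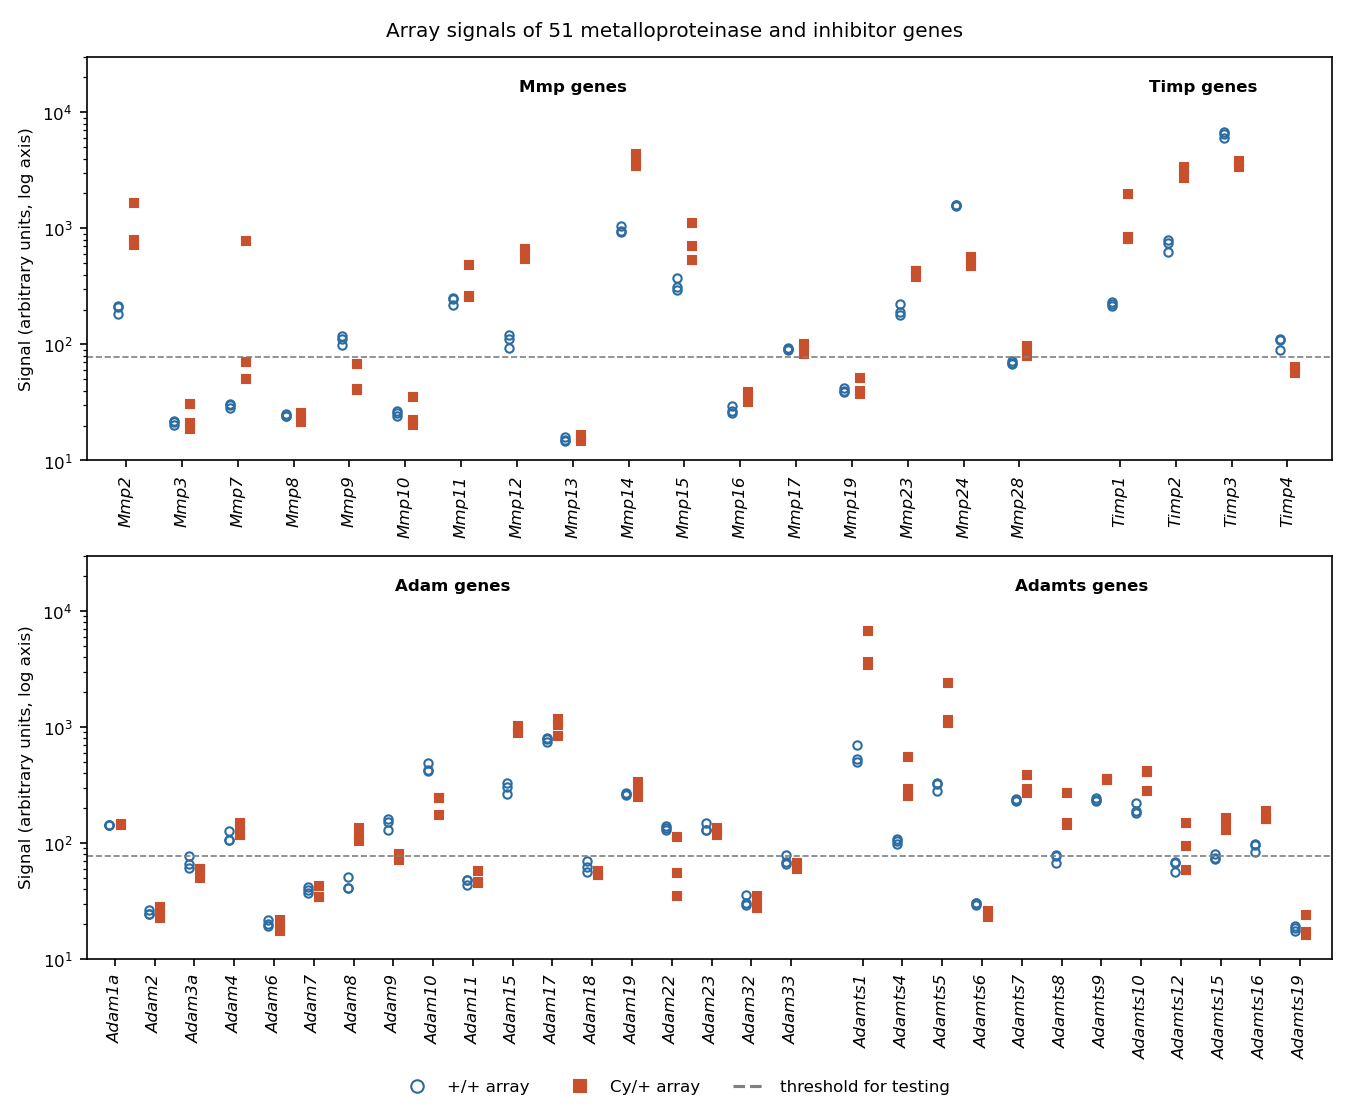
Signal of each of the 51 genes on each array (arbitrary units, log axis), with +/+ arrays as open circles and Cy/+ arrays as filled squares, arranged by family. The dashed line is the threshold for testing at 77.8; 16 genes had both genotype means below it, among them 8 Adam and 6 Mmp genes.

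Timp1 and Timp2 were higher and Timp3 and Timp4 lower in Cy/+ kidneys, and for each of the 4 inhibitors the genotypes did not overlap. Timp1 is a secreted inhibitor that is commonly raised in scarring tissue. Its signals were 214.6, 224.5 and 234.2 on the +/+ arrays and 1975, 815.8 and 844.1 on the Cy/+ arrays. The +/+ values were close together and Cy/+ replicate 1 stood above the other Cy/+ arrays. The rise was 4.94-fold (log2 fold change 2.30, SE 0.32, adjusted p = 0.000678). Timp2, which inhibits metalloproteinases and also takes part in the activation of Mmp2 at the cell surface, read 748.8, 632.2 and 798.4 in +/+ and 3195, 3364 and 2711 in Cy/+. All Cy/+ arrays were several times brighter, by 4.26-fold on average (log2 fold change 2.09, SE 0.12, adjusted p = 2.92e-05). A dimmer Timp2 probe set read 201.3, 182.3 and 187.9 in +/+ and 294.7, 205.5 and 168.9 in Cy/+, where the genotypes overlapped (log2 fold change 0.19, adjusted p = 0.414).

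Timp3 is the matrix-bound inhibitor, which blocks Adam17 and Adamts enzymes as well as Mmp enzymes. Its brightest probe set read 6469, 6051 and 6761 in +/+ and 3619, 3350 and 3803 in Cy/+. Each Cy/+ array was below each +/+ array, and the fall was 1.79-fold (log2 fold change -0.84, SE 0.08, adjusted p = 0.000142). Timp3 had 3 further probe sets, and all of them were lower in Cy/+. The lowest of them read 1230, 1073 and 1137 in +/+ and 99.35, 95.95 and 129.9 in Cy/+, a fall of 10.7-fold (log2 fold change -3.41, adjusted p = 1.47e-05). The 4 probe sets of Timp3 thus shared the direction, while their log2 fold changes ran from -0.60 to -3.41. Timp4, the inhibitor best known from heart and vessels, was dim and read 89.95, 109.5 and 112.2 in +/+ and 61.6, 56.92 and 63.99 in Cy/+. All Cy/+ values lay near background, so the fall was at least 1.33-fold (log2 fold change -0.77, SE 0.12, adjusted p = 0.00101).

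Among the Mmp genes, those for Mmp2, Mmp12, Mmp14, Mmp15, Mmp23 and Mmp28 rose in Cy/+ kidneys and Mmp24 fell. Mmp12, the macrophage elastase, had the largest change of the tested Mmp genes. It read 121.7, 93.81 and 112.2 in +/+ and 660.2, 543.8 and 637.3 in Cy/+. The Cy/+ arrays were close to each other and far above +/+, by 5.63-fold (log2 fold change 2.49, SE 0.13, adjusted p = 2.47e-05). Markers of macrophages were also higher in Cy/+. Of 12 tested macrophage markers 11 were higher and none lower in Cy/+, with Cd163 near background, and their summed signal was 8799 to 10083 in +/+ and 25344, 18166 and 16109 in Cy/+. Among the Cy/+ arrays this sum was lowest on replicate 3, whereas Mmp12 was lowest on replicate 2. The part of macrophage content in the Mmp12 signal was not tested.

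Mmp14 is a membrane-anchored collagenase that, together with Timp2, activates the Mmp2 precursor. All 3 genes of this activation step were higher in Cy/+. Mmp14 read 941.8, 940.1 and 1047 in +/+ and 4355, 3424 and 4032 in Cy/+, without overlap. The rise was 4.02-fold (log2 fold change 2.01, SE 0.11, adjusted p = 2.47e-05), and a dimmer probe set of Mmp14 rose less (log2 fold change 0.80, adjusted p = 0.000636). Mmp2, the gelatinase that degrades basement membrane collagen, read 208.4, 181.5 and 214.1 in +/+ and 1650, 714.5 and 787.9 in Cy/+. As for Timp1, Cy/+ replicate 1 was the brightest array. The rise of Mmp2 was 4.86-fold (log2 fold change 2.28, SE 0.30, adjusted p = 0.00051), but a further probe set, near background on all arrays, was lower in Cy/+. It read 43.11, 40.29 and 43.06 in +/+ and 34.62, 31.71 and 32.23 in Cy/+, opposite in direction to the rise, with a log2 fold change of -0.36 and an adjusted p of 0.00655 with no filter.

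Mmp15, like Mmp14 a membrane-type enzyme, read 296, 310.6 and 376.8 in +/+ and 539.1, 1120 and 698.6 in Cy/+. Here Cy/+ replicate 2 was highest and replicate 1 lowest, and the mean rise was 2.30-fold (log2 fold change 1.20, SE 0.26, adjusted p = 0.00478). Mmp23, a short membrane-bound member of the family, read 189.2, 178.4 and 222.9 in +/+ and 429.4, 379.6 and 426.4 in Cy/+ (2.10-fold, log2 fold change 1.07, SE 0.11, adjusted p = 0.000206). This probe set can bind more than 1 transcript by its name suffix. Another probe set of Mmp23 read 197.7, 207 and 208.6 in +/+ and 248, 176.6 and 198 in Cy/+ and gave no call (log2 fold change 0.0075, adjusted p = 0.964). A further probe set, below the filter, read 91.49, 81.61 and 78.1 in +/+ and 66.36, 72.87 and 69.66 in Cy/+. It was lower on every Cy/+ array, with a log2 fold change of -0.26 and an adjusted p of 0.0625 with no filter. The rise of Mmp23 thus rests on a single probe set. Mmp28, which is made by epithelia, lay close to the threshold, at 67.73, 72.28 and 68.73 in +/+ and 79.84, 96.4 and 93.47 in Cy/+. The groups did not overlap, and the rise of at least 1.15-fold had an adjusted p of 0.0177, with a log2 fold change of 0.37. The call was lost when any of +/+ replicate 1, +/+ replicate 3, Cy/+ replicate 2 or Cy/+ replicate 3 was left out, with adjusted p of 0.0606, 0.0523, 0.0523 and 0.0545 in turn. It was also lost when signals were floored at the threshold, as in the bound (log2 fold change 0.20, adjusted p = 0.0753).

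Mmp24 was the member of the Mmp family that fell. It encodes a membrane-type enzyme described mainly in the nervous system. Its signals were 1603, 1587 and 1557 in +/+ and 534.8, 469.7 and 563.3 in Cy/+, and the groups were far apart. The fall was 3.04-fold (log2 fold change -1.60, SE 0.09, adjusted p = 2.64e-05), and 2 further probe sets of Mmp24 were also lower, by log2 fold changes of -0.54 and -0.69 (adjusted p = 0.00401 and 0.000952). Mmp11, also called stromelysin-3, read 217.6, 245.8 and 249.9 in +/+ and 481.3, 254.3 and 259.4 in Cy/+. Every Cy/+ array was above the +/+ arrays, but most of the difference came from replicate 1, and the log2 fold change of 0.42 did not pass the test (95% interval -0.16 to 0.99, adjusted p = 0.167). Mmp17, a membrane-type enzyme, read 93.77, 91.37 and 88.78 in +/+ and 98.69, 101.4 and 83.34 in Cy/+, with a log2 fold change of 0.044 (95% interval -0.21 to 0.30, adjusted p = 0.727).

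The other 8 Mmp genes were too dim to be tested. Mmp7, matrilysin, is an epithelial enzyme. It read 28.58, 30.22 and 30.57 in +/+ and 50.63, 772.1 and 70.31 in Cy/+. Only Cy/+ replicate 2 was above the threshold, at a signal far above the other Cy/+ arrays, although all Cy/+ arrays exceeded all +/+ arrays. With no filter the adjusted p of Mmp7 was 0.0671. Mmp9, the gelatinase of neutrophils and macrophages, was lower in Cy/+. It read 111.4, 98.98 and 117.1 in +/+ and 41.43, 68.22 and 40.48 in Cy/+, so that all Cy/+ arrays were near background and below every +/+ array. With no filter its log2 fold change was -1.17 (adjusted p = 0.00193), at least 1.40-fold, and a dimmer probe set of Mmp9 was also lower on every Cy/+ array. Of the neutrophil markers S100a8, Camp, Csf3r and Cxcr2 were near background, and 1 of 2 tested markers was higher and none lower. The higher one, S100a9, was near background on each +/+ array and passed the filter through Cy/+, and Itgam gave no call. The summed signal of these markers, most of them near background, was 249 to 272 in +/+ and 314 to 415 in Cy/+. The part of neutrophils and macrophages in the Mmp9 signal was not tested. Mmp16, a membrane-type enzyme, read 25.7, 29.23 and 26.94 in +/+ and 39.16, 36.9 and 31.82 in Cy/+, and it was near background on all arrays. Mmp3 and Mmp10 (stromelysins), Mmp8 and Mmp13 (collagenases) and Mmp19 were likewise below the threshold on all 6 arrays, from 14.83 for Mmp13 to 51.35 for Mmp19.

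Several of these genes are neighbours. Mmp13, Mmp12, Mmp3, Mmp10, Mmp8 and Mmp7 lie in this order in a cluster on rat chromosome 8, together with Mmp1b, Mmp1, Mmp27 and Mmp20, which were not analysed here. Within the cluster Mmp12 rose, Mmp7 was bright on a single array, and the other 4 measured genes were near background. Inducible Mmp promoters are known for AP-1 sites, which bind Fos and Jun proteins. The 100 bases that end 21 bases before the gene start are shown for these 6 genes so that this site can be compared between a neighbour that rose and neighbours near background. They are from RefSeq, build GRCr8, read 5′ to 3′ on the + strand, and matches to TGANTCA, which reads the same on both strands, are in capitals.
Mmp13, chr8:12782709-12782808: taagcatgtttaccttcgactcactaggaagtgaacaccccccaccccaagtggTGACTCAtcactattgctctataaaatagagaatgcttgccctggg
Mmp12, chr8:12866532-12866631: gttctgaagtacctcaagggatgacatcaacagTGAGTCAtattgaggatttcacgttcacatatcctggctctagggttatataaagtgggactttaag
Mmp3, chr8:12925161-12925260: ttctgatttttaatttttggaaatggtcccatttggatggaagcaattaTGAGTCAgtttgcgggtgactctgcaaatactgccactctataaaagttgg
Mmp10, chr8:12974587-12974686: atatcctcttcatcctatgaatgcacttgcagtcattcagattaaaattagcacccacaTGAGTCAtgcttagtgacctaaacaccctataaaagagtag
Mmp8, chr8:13008770-13008869: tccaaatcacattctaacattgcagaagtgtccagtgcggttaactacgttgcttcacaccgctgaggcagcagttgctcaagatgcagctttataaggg
Mmp7, chr8:13132923-13133022: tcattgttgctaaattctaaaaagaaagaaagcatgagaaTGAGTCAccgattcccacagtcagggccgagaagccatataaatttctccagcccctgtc

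The pattern was found in 5 of the 6 stretches, starting 61 to 87 bases before the gene start, and Mmp8 had none. Within 250 bases upstream it was present in 6.34% of 33469 listed promoters. Of the 51 genes, 30 had a listed promoter, and 6 of the 30 held the pattern: the 5 above and Adam19. Among the genes that rose, 13 had a listed promoter, and Mmp12 was the only one of them with the pattern. The match was therefore present in Mmp12, which rose, and in Mmp3, Mmp10 and Mmp13, which were near background, and it did not separate them.

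The Adam genes did not move in 1 direction. Adam15, a membrane protein that joins a protease domain to an integrin-binding domain, rose most. It read 264.7, 330.2 and 307.5 in +/+ and 888, 1014 and 923.2 in Cy/+. The groups were well apart, with a rise of 3.14-fold (log2 fold change 1.65, SE 0.11, adjusted p = 4.01e-05). Adam17, the sheddase that releases TNF and several ligands of the EGF receptor, read 808.7, 792.7 and 748.3 in +/+ and 1177, 1033 and 830.9 in Cy/+. Its groups did not overlap, but Cy/+ replicate 3 was close to the +/+ arrays. The rise of 1.28-fold was near the limit of the test (log2 fold change 0.36, SE 0.13, adjusted p = 0.0452). It did not pass when any of +/+ replicate 1, 2 or 3 or Cy/+ replicate 1 or 2 was left out (adjusted p from 0.0801 to 0.128), nor when each array was centred on its median or no filter was used.

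Adam10, the other main sheddase, which cleaves Notch receptors, cadherins and EGF, fell in Cy/+. It read 486.2, 421.1 and 430.8 in +/+ and 174.7, 245.4 and 242.7 in Cy/+, without overlap. The fall was 2.04-fold (log2 fold change -1.03, SE 0.15, adjusted p = 0.000848), and the second probe set of Adam10 fell alike (log2 fold change -1.13, adjusted p = 0.00027). Adam9, a broadly expressed sheddase, read 151.4, 160.4 and 130.2 in +/+ and 81.02, 72.03 and 73.74 in Cy/+, a fall of at least 1.86-fold (log2 fold change -0.96, SE 0.11, adjusted p = 0.000299). Adam22 lacks protease activity and is known as a synaptic receptor. It read 141.7, 130.9 and 135.7 in +/+ and 112.4, 34.95 and 54.77 in Cy/+, so the Cy/+ arrays were widely spread while all lay below +/+. Its fall of at least 1.55-fold (log2 fold change -1.18, SE 0.38, adjusted p = 0.0268) did not pass when any of +/+ replicate 1, 2 or 3 or Cy/+ replicate 3 was left out (adjusted p from 0.0623 to 0.0736), nor by the test named in the methods (adjusted p = 0.104).

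Adam19, Adam1a, Adam4 and Adam23 were tested and gave no call. Their log2 fold changes were 0.12 (95% interval -0.16 to 0.41), 0.013 (-0.18 to 0.21), 0.20 (-0.11 to 0.51) and -0.10 (-0.35 to 0.15). Further probe sets of Adam19 were near background in both genotypes and differed in direction. The brightest of them was above +/+ on every Cy/+ array (log2 fold change 0.59, adjusted p = 0.0489 with no filter). Another was below +/+ on every Cy/+ array (log2 fold change -0.26, adjusted p = 0.0761 with no filter). For Adam23, a protein without protease activity, the lack of a call rests on the choice of probe set. The representing probe set read 129.7, 129.9 and 149.9 in +/+ and 134.5, 130 and 116.9 in Cy/+, whereas the other read 81.37, 60.82 and 76.15 in +/+ and 366.2, 182.1 and 110.6 in Cy/+. On the second probe set Adam23 rose by at least 2.46-fold (log2 fold change 1.43, SE 0.40, adjusted p = 0.0151), and this probe set would represent the gene if the brightest were taken by the mean of linear signals. Adam8, a sheddase of leukocytes, was below the filter. It read 41.21, 41.17 and 50.59 in +/+ and 111.8, 135.3 and 104.1 in Cy/+, with all Cy/+ arrays above the threshold and all +/+ arrays near background. With no filter its log2 fold change was 1.40 (adjusted p = 0.000118), at least 1.49-fold, while a dimmer probe set of Adam8 stayed near background on all arrays. Lymphocyte markers were higher too, in 4 of 5 tested and lower in none, with Cd8a, Cd79b and Ms4a1 below the filter. Among those higher, Cd3d, Cd3e and Cd3g had +/+ means near background and passed the filter through Cy/+. Cd4 gave no call. The summed signal of the lymphocyte markers was 650.3 to 733 in +/+ and 2011, 2267 and 1241 in Cy/+, highest on replicate 2 as for Adam8. The part of lymphocytes, and of the macrophages given above, in the Adam8 signal was not tested. The remaining 8 Adam genes had both genotype means near background: Adam33, Adam11, Adam6, Adam7 and the testis-associated Adam2, Adam3a, Adam18 and Adam32. The brightest of these, Adam33, read 66.02, 79.21 and 68.26 in +/+ and 59.69, 62.51 and 67.44 in Cy/+. Of 8 markers of spermatogenic cells, 7 were near background in these kidneys.

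The 9 tested Adamts genes were all higher in Cy/+ kidneys, and their groups did not overlap. Adamts1, which cleaves versican and other proteoglycans and restrains vessel growth, had the largest change of the 31 tested genes. It read 694.7, 502.6 and 528.3 in +/+ and 6675, 3610 and 3410 in Cy/+. Every Cy/+ array was several times above +/+, with replicate 1 highest, and the rise was 7.64-fold (log2 fold change 2.93, SE 0.27, adjusted p = 0.000107). Adamts5, the aggrecanase encoded next to Adamts1 on chromosome 11, read 280.1, 329 and 324.2 in +/+ and 2403, 1090 and 1151 in Cy/+. Replicate 1 was again the highest Cy/+ array, and the rise was 4.66-fold (log2 fold change 2.22, SE 0.29, adjusted p = 0.000493). The second probe set of Adamts5 rose alike (log2 fold change 2.47, adjusted p = 5.21e-05). Adamts4, the other main aggrecanase, read 98.68, 108.4 and 104.7 in +/+ and 547.4, 257.3 and 293.8 in Cy/+ (3.33-fold, log2 fold change 1.74, SE 0.27, adjusted p = 0.00102).

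Adamts8 and Adamts15, proteoglycan-cleaving members that are neighbours on chromosome 8, had +/+ means near background and lay above the threshold on every Cy/+ array. Adamts8 read 79.05, 67.42 and 76.94 in +/+ and 270.7, 142.1 and 149.7 in Cy/+, a rise of at least 2.29-fold (log2 fold change 1.27, SE 0.24, adjusted p = 0.00295). Adamts15 read 80.35, 73.16 and 74.23 in +/+ and 164.5, 153 and 130.6 in Cy/+, a rise of at least 1.89-fold (log2 fold change 0.97, SE 0.11, adjusted p = 0.000303). The remaining rises were smaller. Adamts16, linked to kidney development and blood pressure in rats, read 95.56, 83.2 and 98.06 in +/+ and 162.8, 187.9 and 162 in Cy/+ (1.85-fold, adjusted p = 0.000402). Adamts10, which acts on fibrillin microfibrils, read 183, 190.9 and 220.4 in +/+ and 414.6, 408.9 and 282.2 in Cy/+ (1.84-fold, adjusted p = 0.00294), and its second probe set gave no call (log2 fold change 0.15, adjusted p = 0.282). Adamts9, a versican-cleaving enzyme, read 234.9, 245.6 and 230.5 in +/+ and 357.8, 349.8 and 356.3 in Cy/+. Its Cy/+ arrays were within a few percent of each other, and the rise was 1.50-fold (log2 fold change 0.58, SE 0.08, adjusted p = 0.000637). A dimmer probe set of Adamts9, near background on all arrays, did not rise, and its genotypes overlapped (log2 fold change -0.15, adjusted p = 0.325 with no filter).

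Adamts7, which cleaves cartilage oligomeric matrix protein, read 237.8, 233.1 and 233 in +/+ and 385.8, 270 and 295 in Cy/+ (1.33-fold, log2 fold change 0.42, SE 0.14, adjusted p = 0.0323). This call did not hold when a +/+ array was left out (adjusted p from 0.0798 to 0.0880), or after centring or quantile normalization. Adamts12, Adamts6 and Adamts19 were below the filter. Adamts12 read 68.72, 67.34 and 56.35 in +/+ and 148.4, 58.25 and 93.82 in Cy/+, with overlap and an adjusted p of 0.16 with no filter. Adamts6 was near background on all arrays and lower in Cy/+, at 30.6, 29.53 and 30.41 in +/+ and 26.03, 25.46 and 22.96 in Cy/+. Adamts13, the protease of von Willebrand factor, was not analysed here.

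**Figure D2:**
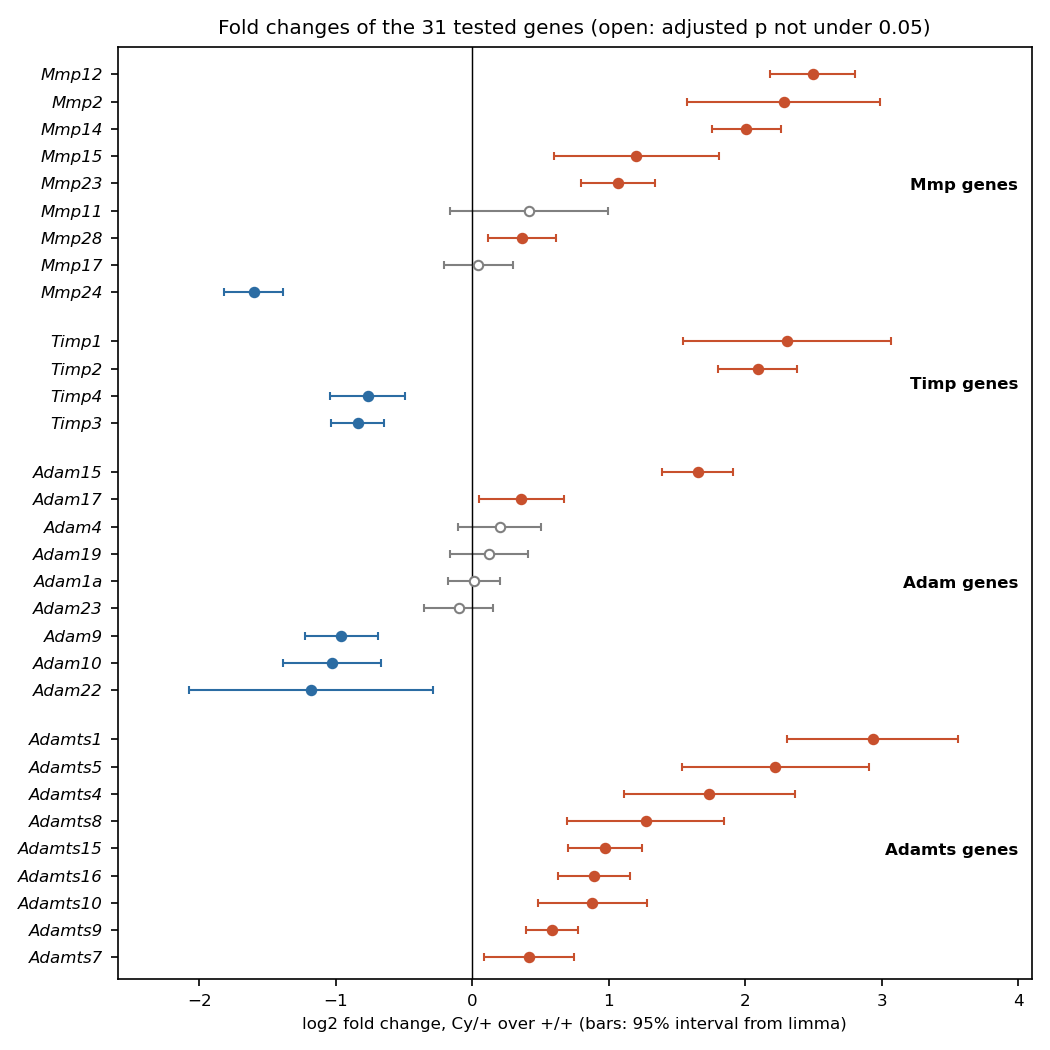
log2 fold change, Cy/+ over +/+, of the 31 tested genes by family, with 95% intervals from limma (n = 3 arrays per genotype); red and blue points passed the test and open points did not. All 9 Adamts genes lie to the right of 0, from 0.42 for Adamts7 to 2.93 for Adamts1, whereas Timp and Adam genes lie on both sides.

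Probe sets of the same gene often differed in the size of their change. Of 15 genes with several probe sets, 9 had more than 1 above the filter. The tested probe sets shared the direction of the log2 fold change in 8 of the 9, with Adam23 as the exception. Among the 8, Timp2, Mmp23 and Adamts10 each had a tested probe set that gave no call. Probe sets below the filter, such as those of Mmp2 and Mmp23 that were lower in Cy/+, are not in this count. The difference between probe sets was itself compared between genotypes for 12 pairs. In 10 pairs every Cy/+ array lay to the same side of every +/+ array (exact two-sided permutation test, p = 0.1, the smallest possible), and the exceptions were Adam10 (p = 0.3, exact permutation test) and Adamts5 (p = 0.4, exact permutation test). The largest such differences, on the log2 scale, were -2.57 and -1.51 for probe sets of Timp3, -1.90 for Timp2 and 1.53 for Adam23. The size of a change therefore depended on the probe set for these genes. The part of the 3' to 5' ratios given above in this was not tested.

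**Figure D3:**
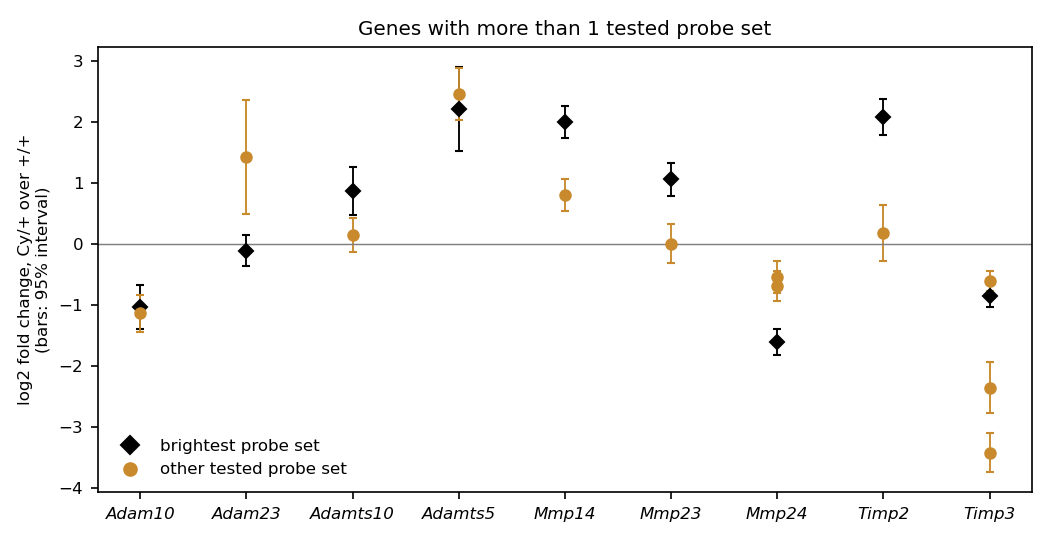
log2 fold change, Cy/+ over +/+, with 95% limma intervals, for each tested probe set of the 9 genes that had more than 1; black diamonds are the probe sets that represent the gene and brown circles the others. The probe sets of Adam10 and Adamts5 lie close together, those of Timp2, Mmp23 and Timp3 far apart, and those of Adam23 on opposite sides of 0.

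The 3 Cy/+ arrays contributed unequally. Cy/+ replicate 1 was the brightest Cy/+ array for 14 of the 19 genes that rose, replicate 2 for 5 and replicate 3 for none. Of all 3983 genes that rose, replicate 1 was brightest for 1570 (39.4%), replicate 2 for 1865 and replicate 3 for 540. Replicate 1 was brightest for 8 of the 9 Adamts genes and for 4 of the 6 Mmp genes. The order on the Cy/+ arrays of Timp1, Mmp2, Adamts1, Adamts4, Adamts5 and Adamts8 had replicate 1 well above the other two, which lay close together. Mmp15, Mmp28 and Adam15 had replicate 1 lowest. Markers of fibroblasts and myofibroblasts were also brightest on replicate 1: their summed signal was 8979.7 to 10427 in +/+ and 45329, 25622 and 26119 in Cy/+. Of 11 tested markers of these cells 9 were higher and none lower. Postn and Lum were below the filter and near background in +/+ only, and each Cy/+ array exceeded every +/+ array. The summed signal of proximal tubule markers, all 13 of which were lower in Cy/+, was 112467 to 120297 in +/+ and 33591, 13011 and 35186 in Cy/+. Endothelial markers, of which 5 of 9 were lower and none higher, summed to 8397 to 9282 in +/+ and 6081, 5119 and 4842 in Cy/+. Collecting duct markers, with 1 of 10 higher and 1 lower, were brightest on Cy/+ replicate 2, at 8754, 24007 and 17744 in Cy/+ against 11591 to 12945 in +/+. Macrophage markers, given above, were brightest on Cy/+ replicate 1. So were podocyte markers, with 4 of 5 lower and 1 higher, at 4071, 3031 and 2679 in Cy/+ against 3436 to 3840 in +/+. Synpo, the podocyte marker that rose, weighed most in this sum, at 2863, 2183 and 1902 in Cy/+. The sum therefore does not show the fall of the other 4. Thick limb and distal tubule markers, with 3 of 9 higher and 3 lower, summed to 23039, 24152 and 37622 in Cy/+ against 35279 to 37896 in +/+. Umod, which gave no call, weighed most there, at 13290, 12630 and 19070 in Cy/+. The part of these cell types in the changes of the proteases and inhibitors was not tested. No change of a called gene moved by more than 1.37-fold when 1 array was left out, and that largest move was of Adam22.

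**Figure D4:**
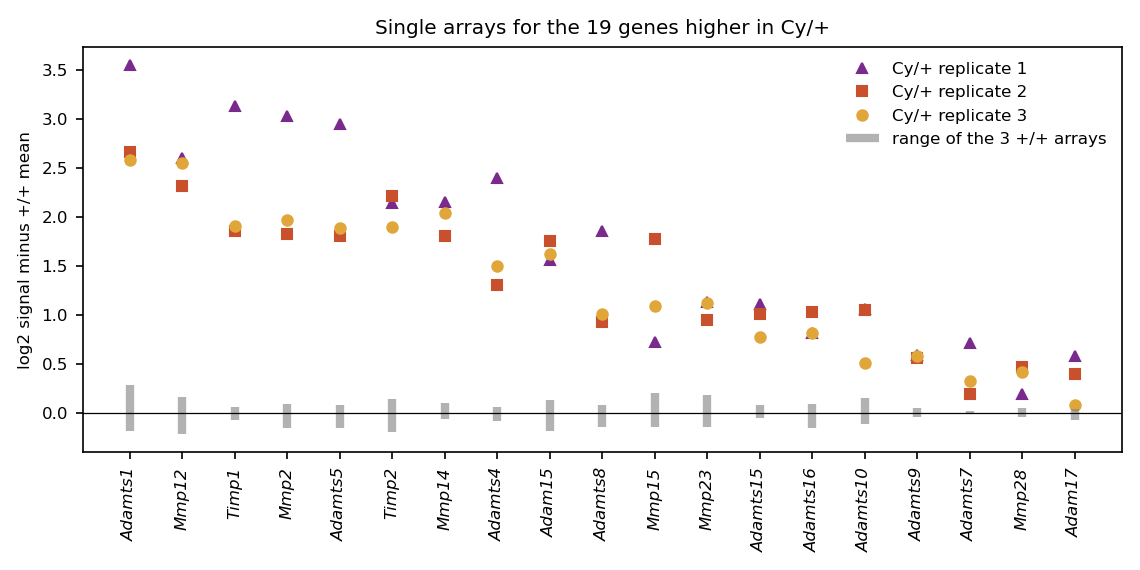
log2 signal of each Cy/+ array minus the +/+ mean for the 19 genes that rose, ordered by mean change, with the range of the 3 +/+ arrays in grey. Purple triangles (Cy/+ replicate 1) stand above the other Cy/+ arrays for Adamts1, Timp1, Mmp2, Adamts5, Adamts4 and Adamts8, and below them for Mmp15, Mmp28 and Adam15.

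Genes that act on or with the proteases were described from lists made for this purpose, with counts to be read against the 37.4% higher and 29.3% lower of all tested genes. Of the 7 tested activators of the enzyme precursors, or genes that control such activators, none rose and 3 fell, with a median log2 fold change of -0.30. Serpinf2, the plasmin inhibitor, read 2797, 2980 and 2525 in +/+ and 615.7, 289.7 and 813.2 in Cy/+ (5.25-fold lower, adjusted p = 0.000769). Bsg, an inducer of Mmp expression also called Emmprin, was 1.56-fold lower (adjusted p = 0.00103). Furin, the convertase that removes the prodomain of many Adam, Adamts and membrane-type Mmp enzymes, was 1.23-fold lower, near the limit of the test (adjusted p = 0.0471). The lowered members thus include both an inhibitor of activation and activators. Of other inhibitors and cofactors, 5 of 7 rose and none fell, with a median of 1.18. A2m, a plasma inhibitor that traps proteases, read 25.05, 31.65 and 31.77 in +/+ and 897.5, 379.6 and 533.4 in Cy/+. It was near background on each +/+ array, and the rise was at least 7.28-fold (adjusted p = 4.41e-05). Rhbdf2 and Rhbdf1, which escort Adam17 to the cell surface and are counted here as cofactors, rose 2.27-fold (adjusted p = 0.000145) and 1.52-fold (adjusted p = 0.00259). The 5 genes of this list that rose are therefore not all inhibitors.

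Of 5 Adamts-like genes, whose products resemble Adamts enzymes without the protease domain, 4 rose and none fell. Adamtsl4 rose 3.37-fold (adjusted p = 0.00207), and Adamtsl5 and Adamtsl1, both near background in +/+, rose at least 1.81-fold and 1.77-fold (adjusted p = 0.00236 and 0.00638). Among related metalloproteinases the subunits of meprin, a brush-border enzyme of the proximal tubule, fell. Mep1a read 6384, 6919 and 5862 in +/+ and 644.1, 319.7 and 1502 in Cy/+ (9.42-fold lower, adjusted p = 0.000983), and Mep1b was 8.32-fold lower (adjusted p = 0.00155). Bmp1, the procollagen C-proteinase, rose 2.58-fold (adjusted p = 4.79e-05). The 13 proximal tubule markers given above were lower as well, and their part in the fall of the meprin genes was not tested.

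Substrates of the enzymes rose more often than they fell. Of 21 tested matrix genes 14 rose and 2 fell, with a median log2 fold change of 1.20. Col1a1, a chain of type I collagen, read 344.7, 226.7 and 264.3 in +/+ and 5346, 3763 and 4053 in Cy/+, a rise of 15.8-fold (adjusted p = 2.08e-05). Col18a1, the source of endostatin, rose 3.70-fold (adjusted p = 2.14e-05) and Spp1, osteopontin, 6.17-fold (adjusted p = 5.03e-05). Of 18 tested membrane proteins that are released by shedding, 9 rose and 4 fell, with a median of 0.49. Cd44, the hyaluronan receptor, read 168.7, 196.7 and 184.5 in +/+ and 1395, 1145 and 1218 in Cy/+, a rise of 6.82-fold (adjusted p = 1.38e-05). Tnfrsf1a, a TNF receptor shed by Adam17, rose 3.31-fold (adjusted p = 3.36e-05). Kl, which encodes the kidney protein klotho, read 301.4, 228.4 and 253.8 in +/+ and 30.71, 27.36 and 35.46 in Cy/+. It was near background on all Cy/+ arrays, at least 3.33-fold lower (adjusted p = 2.08e-05).

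**Figure D5:**
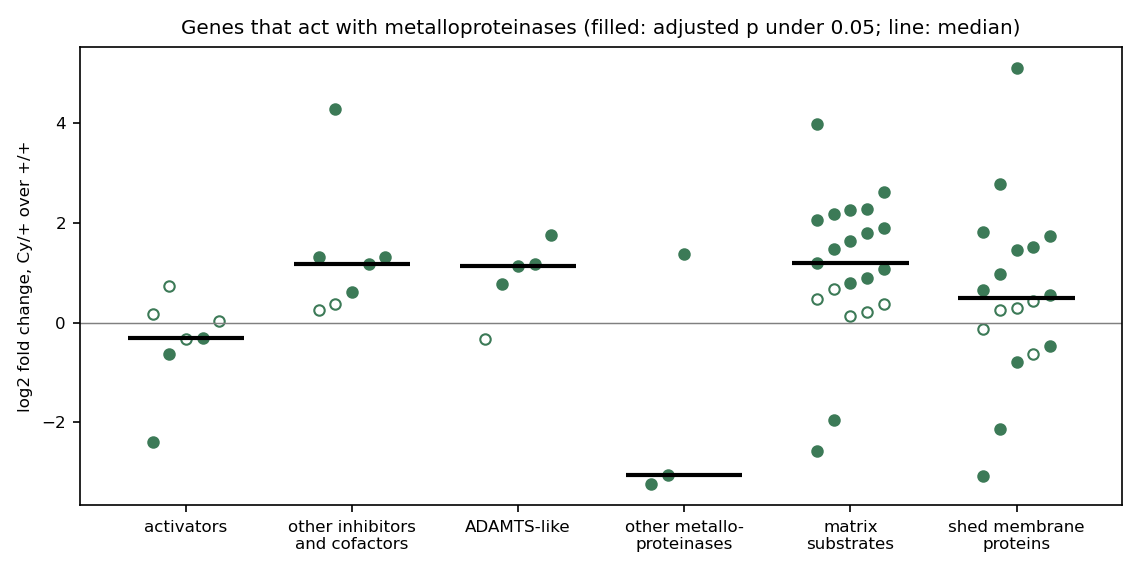
log2 fold change, Cy/+ over +/+, of each tested gene in 6 lists of genes that act with metalloproteinases, with filled points for genes that passed the test and open points for the rest; horizontal lines give the list medians. The medians run from -3.06 for other metalloproteinases (3 genes) to 1.20 for matrix substrates (21 genes).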

How the data were processed

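RNA of 3 Cy/+ and 3 +/+ kidney samples was measured on oligonucleotide arrays, 1 array per sample, from 5 μg of total RNA. Each probe set has 1 deposited value per array, a linear signal intensity. Per the labels and methods, the authors used biotin-labeled cRNA, GCOS software and MAS5. The scaling between arrays is not given in the sources used here. Detection calls were not used here.

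Signals were taken to log2 without further scaling. Of 31099 probe sets, 57 controls were left out, and the 18625 with a mean log2 signal at or above the 40th percentile were tested with limma 3.58.1 in R 4.3.3 (lmFit, eBayes with an intensity trend, no covariate). Benjamini-Hochberg adjustment covered every tested probe set, and the threshold was 0.05. Symbols came from the platform annotation, updated by Entrez ID to GRCr8 names (20758 of 20826 probe sets with a single symbol). Another 436 had several symbols and 9831 none, and these name no gene here. No probe set with several symbols met the name rule. Sequences are from RefSeq. The code of the fit was tried on simulated arrays with independent noise, few changed probe sets and no differences between arrays. That trial cannot show how the fit behaves where most genes change or control probe sets differ by genotype.

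The genes and all lists were chosen with earlier results of these data known. Named were all Mmp and Timp genes, the Adam and Adamts genes past the threshold (up to 8 each way), Adam10, Adam17, Adamts1, up to 3 untested members of highest signal per family, and up to 3 genes of each list with the smallest adjusted p. Other members were named to account for every gene.

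Alternatives changed 1 choice at a time: no filter, a 60th percentile filter, a pseudocount of 16, a floor at the threshold, centring on the median, quantile normalization, array weights, no intensity trend, the test per gene named in the methods, the average over a gene's probe sets, no probe sets with an s, x or a suffix, a block for the replicate number, and each array left out in turn. Choosing the brightest probe set by linear means was added after the data were seen.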

Additional observations from a re-analysis of the deposited data

Results flagged for a closer look

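Adam8 and Mmp7 lay below the filter and so outside the test, yet their mean signal on the Cy/+ arrays was above that on the +/+ arrays. The mean of Adam8 was 117 ± 16.3 (SD, n = 3) for the Cy/+ arrays against 44.3 ± 5.43 (SD, n = 3) for the +/+ arrays, and all 3 Cy/+ arrays carried the signal. The mean of Mmp7 was 297.7 ± 411 (SD, n = 3) for the Cy/+ arrays against 29.8 ± 1.06 (SD, n = 3) for the +/+ arrays, and a single array, Cy/+ replicate 2 at 772.1, set the Cy/+ mean. Collecting duct markers and lymphocyte markers were also brightest on that array, and so were 1865 of all 3983 genes that rose. The part of these cell types in the Mmp7 signal was not tested. The hybridization controls (median 1.83-fold) and the poly-A controls (median 3.82-fold) were brighter in Cy/+ than in +/+, on all 18 and all 24 of their probe sets. Groups of 3 arrays are too small for a test of single arrays that stand apart.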

How the results depend on the processing

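Of the 25 genes that passed the test, 15 of 19 higher and 5 of 6 lower ones kept their call under every alternative in which they were tested. The exceptions were Adam17, Adamts7, Mmp28, Mmp23 and Adam22, and none of these changed sign. The 60th percentile filter left 19 genes to test, of which 14 were higher and 3 lower, with 1 Timp and 1 Adam gene lower and 5 Adamts genes higher. With no filter 2 Mmp genes and 1 Adamts gene were lower. A single Adam gene, Adam15, was higher (1 in place of 2) with array weights, after centring on the median, and by the methods' test with or without adjustment. Adamts7 and Adam22 were also lost by the methods' test (adjusted p = 0.0807 and 0.104). Leaving out each array in turn gave 16 to 18 genes higher and 5 to 6 lower, and 1 to 2 Adam genes higher. Genes without a call changed sign under some settings: Adam19 (-0.016 after quantile normalization), Adam1a (-0.056 after centring, -0.068 after quantile normalization and from -0.0014 to 0.024 when 1 array was left out, the lowest without Cy/+ replicate 1), Mmp17 (-0.033 with array weights, -0.025 after centring and from -0.0094 to 0.13 when 1 array was left out, the lowest without Cy/+ replicate 2) and Adam23 (0.66 with the mean of its probe sets and 1.43 with the brightest by linear mean). Where no construction of the setting shows it, the cause was not tested. Centring moved every log2 fold change by -0.069. No sign was seen that the numbers 1 to 3 pair the samples. Deviations of same-numbered arrays correlated at 0.15, -0.11 and -0.15, and those of differently numbered arrays at -0.12 to 0.24. With 3 arrays per genotype these values cannot exclude a pairing. With the replicate number as a block, 19 genes were higher and 6 lower. Among the lists, the count of matrix genes that were higher ranged from 13 to 16 and of shed membrane proteins from 8 to 10. Adamts-like genes higher ranged from 1 to 4, the lowest with the 60th percentile filter. Of the activators 0 to 2 were higher and 2 to 3 lower, with a median from -0.37 to 0.10. The number of arrays and low signals limit these results: 20 of 51 genes were not tested, and folds of genes near background are bounds.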
